A study of Mus musculus with 9 samples.

Results

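The heterotrimeric G protein subunit genes, 32 of the 54838 genes in the deposited count table, were taken by symbol: 15 alpha, 5 beta and 12 gamma subunit genes. All 32 symbols were found, each on a single row. Expression was read by Smart-3SEQ, a 3′-end sequencing method for small amounts of RNA, in mouse brain cells that the labels call neurons and that were cut out by laser-capture microdissection. The study concerns the paraventricular hypothalamus (PVH) and its handling of visceral and somatic pain. There were 3 libraries each named mCherry (a red fluorescent protein), cfos (the product of the activity gene Fos) and overlap, by its name the cells that carry both. The submitters describe the populations as marked through CRD, through VFF or through the pair. Which of these is mCherry and which is cfos is not given in the sources used here. Neither are genotype, strain, age, any treatment beyond what CRD and VFF stand for, or the number of animals and cells behind a library. All groups share the tissue, the cell type given in the labels and the library method.

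A G protein is a switch made of an alpha subunit, which binds guanine nucleotide, and a paired beta and gamma subunit. An activated receptor makes the alpha subunit exchange GDP for GTP, after which alpha and the beta-gamma pair act on separate effectors until GTP is hydrolysed. Gs-type alpha subunits stimulate adenylyl cyclase, Gi/o-type subunits inhibit it and release beta-gamma pairs that open GIRK potassium channels, Gq/11-type subunits activate phospholipase C beta, and G12/13-type subunits act on exchange factors of small GTPases. In the PVH, receptors for peptides and monoamines signal through all of these routes.

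The members differ in the last codons of their coding sequence, and these stretches are shown because Gnaz, whose levels did not overlap between groups, is the Gi/o-type gene that departs from its class there. Capitals mark the codon 3 places before the last sense codon, which in 6 of the 7 Gi/o-type genes encodes the cysteine modified by pertussis toxin. In Gnaz this codon encodes isoleucine, and Gz is known to be insensitive to the toxin. The sequences are from GENCODE M21 transcripts (GRCm38), on the coding strand, and each ends with the stop codon.
Gnaz (chr10:75015195-75015212, + strand): tacATCggcctttgctga
Gnao1 (chr8:93967038-93967055, + strand): ggcTGCggcttgtactga
Gnai2 (chr9:107615635-107615652, - strand): gacTGTggcctcttctga
Gnas (chr2:174346371-174346388, + strand): caaTACgagctgctctaa
Gnaq (chr19:16383377-16383394, + strand): gagTACaatctggtctaa

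Gamma subunits carry a lipid on a cysteine at the same distance from their end, and capitals below mark that codon and the last sense codon. All 12 gamma genes had the cysteine codon. In 9 the last codon encoded leucine, the form that receives a geranylgeranyl group, and in Gngt1, Gngt2 and Gng11 it encoded serine, the form that receives the shorter farnesyl group. Gng3 and Gng2, the gamma genes with the most counts in all, are shown beside Gngt1 and Gng11 from the serine class.
Gng3 (chr19:8838143-8838160, - strand): ttcTGTgcgctcCTCtga
Gng2 (chr14:19875807-19875824, - strand): ttcTGCgccatcCTTtaa
Gngt1 (chr6:3996763-3996780, + strand): ggcTGTgtgattTCAtag
Gng11 (chr6:4008143-4008160, + strand): agcTGTgtcattTCAtaa

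The libraries held 504785 to 597898 counts in overlap, 877257 to 978877 in mCherry and 700556 to 3414593 in cfos. In 0 genes did cfos 2 exceed cfos 3, and the pair differed by less than sampling noise, with a chi-square of 0.824 per gene where the other 35 pairs of libraries had 9.08 to 58.5. They were averaged and counted as 1 sample, so n = 3, 3 and 2 in overlap, mCherry and cfos. In 0 genes did mCherry 2 exceed the sum of mCherry 1 and mCherry 3, so it may not be independent of them, and p-values that use the spread of mCherry may then be too small. In counts-per-million units (CPM, relative to the effective library size), Fos stood at 72.4 to 282 in the overlap libraries and 11.3 to 30.9 in those of mCherry. It stood at 286 CPM in cfos 1 but at 24.7 CPM in the cfos 2/3 average, inside the mCherry range and against the label. The 7 neuronal markers all had counts in every library, with sums of 651 to 941, 1121 to 1135, and 1595 and 2321 CPM in overlap, mCherry and cfos. The 6 PVH neuron markers summed to 230 to 1439, 148 to 448, and 592 and 648 CPM, most of it oxytocin (Oxt) in mCherry and cfos. Of the oligodendrocyte markers, Mbp stood at 6.32 to 16.3, 9.21 to 23.5, and 47.7 and 30.7 CPM in cfos 1 and cfos 2/3, and Mobp at 2.11 to 16.3, 13.3 to 57.6, and 42.1 and 52.9 CPM. Mog, with very few counts, went the other way, at 0 to 5.43, 0 to 3.2, and 0 and 0.853 CPM. Astrocyte markers (8 genes) lay between 686 and 1024 CPM except for 3523 CPM in cfos 1, where Apoe alone had 2837 CPM. Microglial markers (8 genes) summed to 92.1 to 253 CPM and endothelial and mural markers (8 genes) to 477 to 708 CPM over all libraries. In each of these lists, among the markers reported here, 0 were at 0 in every library. The part of other cells in the results below was not tested.

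**Figure D1:**
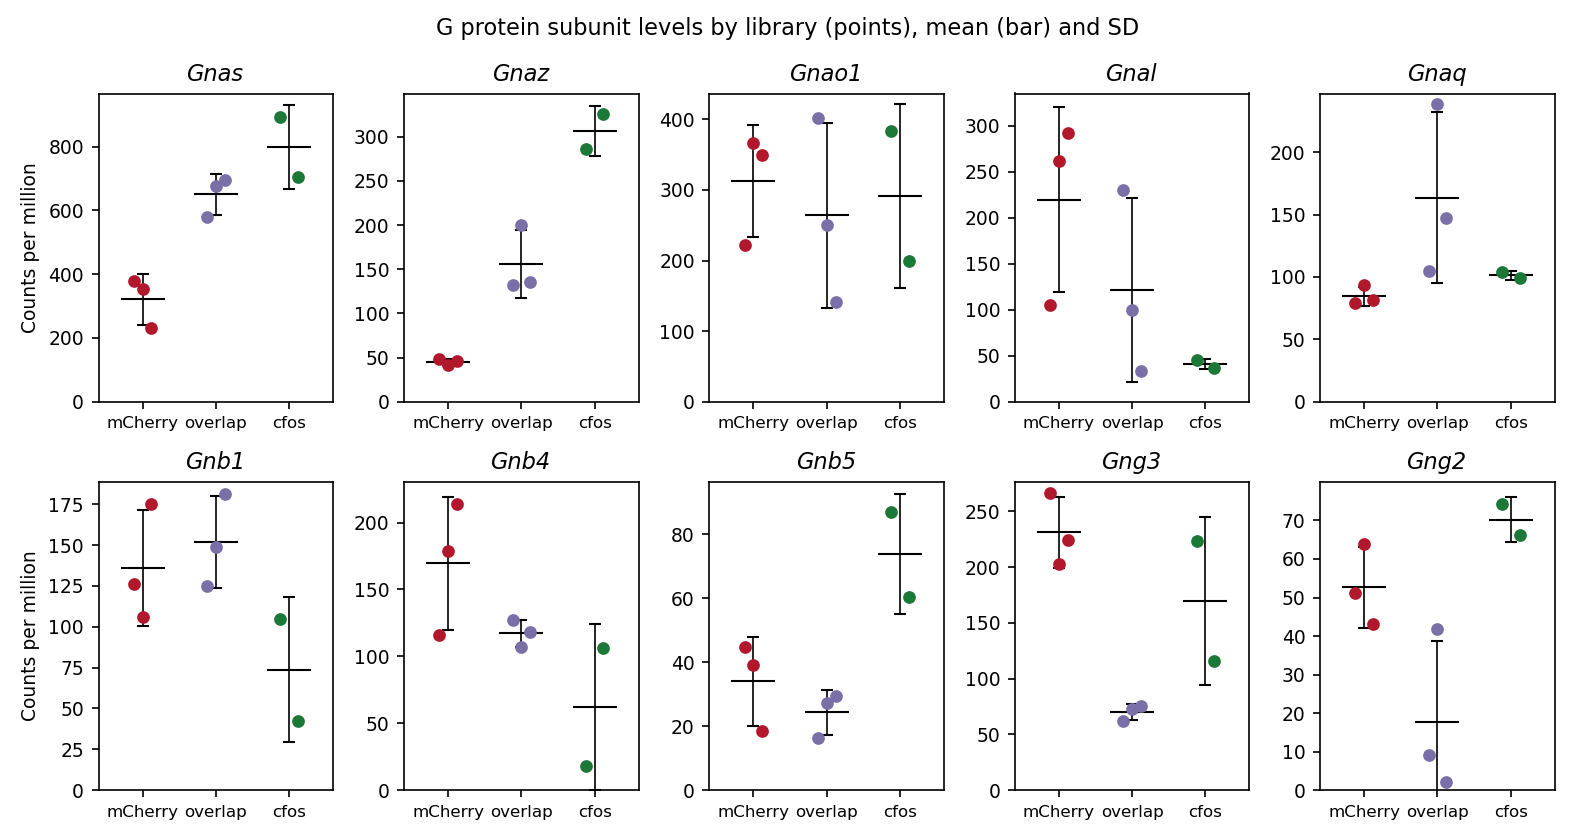
CPM (linear axes from 0) of 10 subunit genes in 3 mCherry, 3 overlap and 2 cfos replicates; points are libraries, with cfos 2 and cfos 3 averaged, the long bar is the mean and the whiskers the SD, cut off at 0. Gnaz and Gnas lie lowest in mCherry, with no library shared with the range of overlap or cfos, and Gng3 lies lowest in overlap, between 61.6 and 75.8 CPM.

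Of the 32 genes, 18 passed the filter on low counts and were tested, and 14 were not. Reads start near the 3′ end, so levels of different genes are compared as CPM without division by length. Averaged over the 8 replicates, Gnas was highest with 564 CPM, followed by Gnao1 with 289 CPM. This order did not hold in each group, since Gnao1 exceeded Gnas in mCherry 2 and mCherry 3 and the mean of Gnaz in cfos (306 CPM) was above that of Gnao1 (291 CPM). Gng3 (155 CPM), Gnaz (152), Gnal (138), Gnb1 (126), Gnb4 (123), Gnaq (119) and Gna11 (103) came next, and their libraries overlapped so widely that these neighbours could not be ordered. The remaining tested genes, Gna13, Gnai2, Gng2, Gnb5, Gngt1, Gnb2, Gng12, Gna12 and Gng4, lay between 7.25 and 47.8 CPM. In these bulk libraries fewer cells of a type and less RNA per cell cannot be told apart.

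Among the untested genes, 4 had 0 counts in every library: Gna14, Gnat1, Gng5 and Gng10. A count of 0 allows up to 3 counts, or 1.28 to 6.32 CPM depending on the library, and 45.1% of all listed genes were at 0 throughout. Gnat1 is the rod photoreceptor alpha subunit, and Gna14 is a Gq/11-type gene. Gng10 overlaps the readthrough gene Gm20503 on the same strand, which shares 97% of its last 500 exonic bases and was also at 0; the part of this overlap in the 0 counts was not tested. Gng5 shares 0% of those bases with any gene, while its processed pseudogene Gng5-ps had 6, 32 and 8 counts in overlap, 0, 20 and 37 in mCherry and 0, 1 and 1 in cfos. Reads of Gng5 and its pseudogene can be confused, so the value of 0 for Gng5 is uncertain.

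The other 10 untested genes averaged at most 10.9 CPM. Gna15, a Gq/11-type gene best known from blood cells, had 1, 31 and 1 counts in the overlap libraries and 0 counts in all mCherry and cfos libraries. Over the group this was at least 19.3-fold higher in overlap than in mCherry and at least 21.3-fold higher than in cfos, taking 3 counts over a group as the floor, but 31 of the 33 counts came from overlap 2. Gng11 had 0 counts in overlap, 1, 1 and 0 in mCherry and 6, 4 and 19 in cfos 1, 2 and 3, and was at least 3.1-fold higher in cfos than in overlap. Gng7, a partner of the olfactory-type alpha subunit in mouse striatum, had 86 and 153 counts in cfos 2 and 3 and no more than 7 in any other library, and Gng8, known from mouse vomeronasal neurons, had 30 and 51 there and no more than 2 elsewhere. These are the columns counted as 1 sample. Gnai1 stood at 0 to 5.43 CPM in overlap, 1.07 to 4.09 in mCherry and at 25.2 and 11.5 CPM in cfos. Gng13, a taste and retinal gamma subunit, stood at 0 to 5.44, 7.16 to 9.45, and 11.2 and 11.9 CPM, but 79.8% of its last 500 exonic bases are shared with Chtf18 on the other strand. Gnai3, Gnat2, Gnb3 and Gngt2 had scattered counts, with 19.6 CPM of Gnb3 in cfos 1 as the highest value.

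Gnas (ENSMUSG00000027523, chromosome 2, 174284320 to 174346744 in mm10, protein-coding; all gene positions are in this build) encodes the alpha subunit that stimulates adenylyl cyclase. Its levels were 578, 678 and 697 CPM in overlap, 380, 352 and 230 CPM in mCherry and 893 and 705 CPM in cfos. All mCherry libraries lay below all others, and the means ± SD were 651 ± 64.4 CPM (n = 3), 321 ± 79.5 CPM (n = 3) and 799 ± 133 CPM (n = 2). Of its last 500 exonic bases 93.6% are shared with the predicted gene Gm20721 on the other strand, whose counts were 6 to 7 in overlap, 17 to 105 in mCherry and 12 to 51 in cfos. The antisense gene Nespas shares 8.83% of all exonic bases of Gnas. Its counts were 44, 35 and 23 in overlap, 9, 3 and 0 in mCherry and 16, 273 and 456 in cfos. The part of either gene in the Gnas counts was not tested. The Gnas locus also gives several imprinted transcripts with a common end, which 3′ reads cannot separate.

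Gnal (ENSMUSG00000024524, chromosome 18, 67088216 to 67226792, protein-coding) encodes the olfactory-type stimulatory subunit, which replaces Gs in striatal and olfactory neurons. It stood at 230, 99.8 and 33.7 CPM in overlap, 105, 262 and 292 CPM in mCherry and 44.9 and 37.1 CPM in cfos. The cfos libraries lay below all mCherry libraries, and of the overlap libraries overlap 3 lay below the cfos range and the others above it. By group means, Gnal was lowest in cfos and Gnas highest there.

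Gnaz (ENSMUSG00000040009, chromosome 10, 74967177 to 75016907, protein-coding) encodes the toxin-insensitive inhibitory subunit. Its levels were 132, 200 and 135 CPM in overlap, 48, 41.3 and 46 CPM in mCherry and 286 and 326 CPM in cfos. The 3 groups did not overlap, in the order mCherry, overlap, cfos, with means ± SD of 45.1 ± 3.43 CPM (n = 3), 156 ± 38.2 CPM (n = 3) and 306 ± 28.4 CPM (n = 2). The gene lies within Rsph14 on the other strand but shares no exonic base with it, and Rsph14 had 0 counts in overlap and mCherry and 2, 3 and 8 in cfos. Unlike Fos, Gnaz had similar levels in cfos 1 and in the cfos 2/3 average.

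Gnao1 (ENSMUSG00000031748, chromosome 8, 93809966 to 93969388, protein-coding), the abundant alpha subunit of neurons, stood at 402, 250 and 141 CPM in overlap, 222, 367 and 349 CPM in mCherry and 384 and 199 CPM in cfos. All 3 groups overlapped. Gnai2, an inhibitory subunit of many cell types, stood at 29.5 to 65.3 CPM in overlap, 36.3 to 46 in mCherry and 64.5 and 40.1 CPM in cfos, and the groups overlapped as well.

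Gnaq (ENSMUSG00000024639, chromosome 19, 16132831 to 16387463, protein-coding), an activator of phospholipase C beta, stood at 105, 239 and 147 CPM in overlap, 78.9, 93.3 and 81.8 CPM in mCherry and 104 and 98.9 CPM in cfos. Overlap was highest and mCherry lowest, with overlap 1 at 105 CPM and cfos 1 at 104 CPM close to each other. Its close relative Gna11 stood at 71.6 to 134 CPM in overlap, 40.5 to 106 in mCherry and 167 and 121 CPM in cfos. Of the G12/13-type genes, Gna13 (ENSMUSG00000020611, chromosome 11, 109362831 to 109401369, protein-coding) stood at 56.1, 81.6 and 8.43 CPM in overlap, 28.8, 60.2 and 79.8 CPM in mCherry and 18.2 and 49 CPM in cfos, with wide overlap. Gna12 did not exceed 18.1 CPM in any replicate.

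Of the beta subunits, which form a propeller that carries gamma, Gnb1 (ENSMUSG00000029064, chromosome 4, 155491361 to 155559269, protein-coding) stood at 125, 149 and 181 CPM in overlap, 126, 106 and 175 CPM in mCherry and 105 and 42.2 CPM in cfos. Both cfos replicates were below every other library, though cfos 1 at 105 CPM was close to mCherry 2 at 106 CPM. Gnb4 (ENSMUSG00000027669, chromosome 3, 32580332 to 32616585, protein-coding) stood at 127, 107 and 118 CPM in overlap, 116, 179 and 214 CPM in mCherry and 18.2 and 106 CPM in cfos. The cfos values differed 18.2 against 106 CPM, and the cfos 2/3 average lay just under the lowest overlap library. Gnb5, the divergent beta subunit that pairs with R7-family RGS proteins, stood at 16.3 to 29.5 CPM in overlap, 18.4 to 44.8 in mCherry and 87 and 60.5 CPM in cfos, where both replicates exceeded all others. Gnb2 stood at 3.62, 38.1 and 6.32 CPM in overlap against 34.8 to 44.9 CPM in mCherry and 36.5 and 45.6 CPM in cfos.

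Among the gamma subunits, Gng3 and Gng2 were lower in all overlap libraries than in all others. Gng3 (ENSMUSG00000071658, chromosome 19, 8836933 to 8839194, protein-coding), a gamma subunit of neurons, stood at 61.6, 72.6 and 75.8 CPM in overlap, 266, 203 and 224 CPM in mCherry and 223 and 116 CPM in cfos. All overlap libraries lay below all others, with means ± SD of 70 ± 7.49 CPM (n = 3), 231 ± 31.8 CPM (n = 3) and 169 ± 75.7 CPM (n = 2). Bscl2, on the other strand, shares 24.2% of the exonic bases of Gng3 but 0% of the last 500, and it stood at 75.8 to 180 CPM in overlap, 60.4 to 105 in mCherry and 154 and 137 CPM in cfos.

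Gng2 (ENSMUSG00000043004, chromosome 14, 19872559 to 19977627, protein-coding), which often serves as the partner of Gnb1 in reconstituted G proteins, stood at 9.05, 41.7 and 2.11 CPM in overlap, 51.2, 63.8 and 43 CPM in mCherry and 74.3 and 66.1 CPM in cfos. Again all overlap libraries lay lowest, but overlap 2 was close to mCherry 3. The lincRNA Gm48283 on the other strand shares 100% of the last 500 exonic bases of Gng2 and had 57, 32 and 0 counts in overlap, 64, 41 and 23 in mCherry and 5, 66 and 126 in cfos. Gng12, found in many cell types, stood at 2.11 to 7.26 CPM in overlap, 2.36 to 10.7 in mCherry and 28 and 14.5 CPM in cfos. Gng4 was at 0 in overlap 1 and 3 and did not exceed 15.4 CPM elsewhere.

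Gngt1, the gamma subunit of rod photoreceptors, varied widely within groups. It had 17, 31 and 0 counts in overlap, 138, 24 and 1 in mCherry and 0, 66 and 96 in cfos 1, 2 and 3. High and low libraries stood in every group. Of the photoreceptor markers, the phosphodiesterase gene Pde6b was at 0 in all replicates but overlap 1, with 32.6 CPM, and the recoverin gene Rcvrn was at 0 in all but the cfos 2/3 average, with 37.9 CPM. The arrestin gene Sag stood at 116 to 343 CPM in all libraries.

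**Figure D2:**
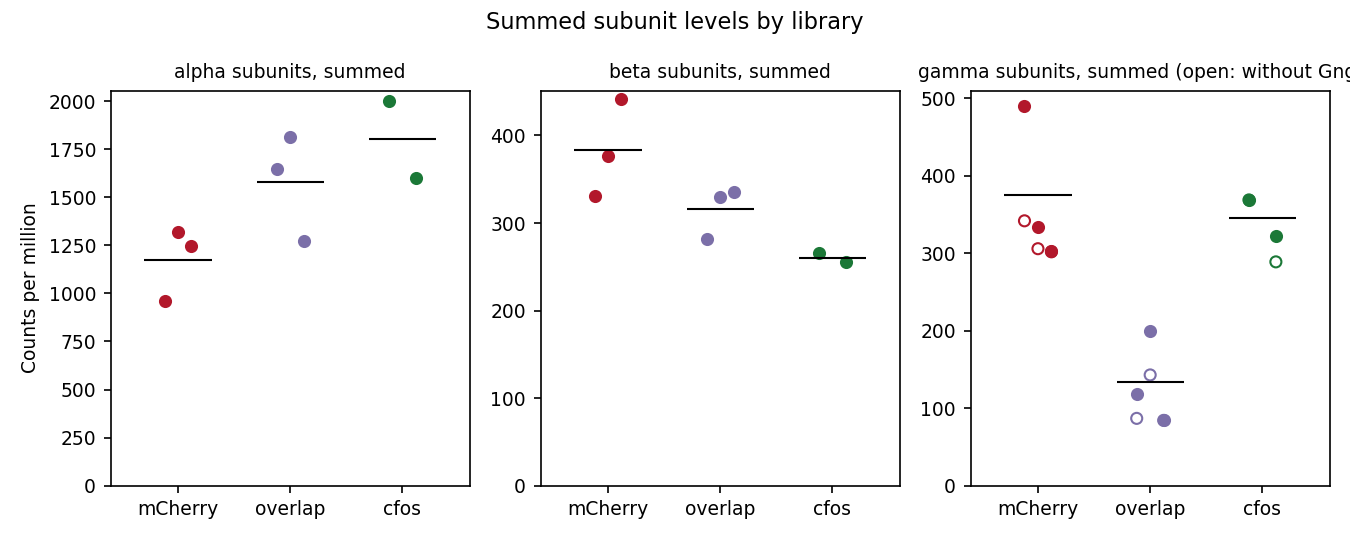
Summed CPM of the 15 alpha, 5 beta and 12 gamma subunit genes in each replicate (filled points; bars are group means; open points leave out Gngt1). The gamma sum is lowest in all 3 overlap libraries, at 84.3 to 200 CPM, with or without Gngt1.

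Summed over each type, the gamma genes came to 118, 200 and 84.3 CPM in overlap, 490, 334 and 303 CPM in mCherry and 369 and 323 CPM in cfos. Overlap was below every other library, and without Gngt1 the sums were 84.3 to 143, 302 to 342, and 369 and 289 CPM. The beta sum was 316 ± 29.1 CPM in overlap (SD, n = 3), 383 ± 55.9 CPM in mCherry (n = 3) and 261 ± 8.42 CPM in cfos (n = 2), with cfos below all other libraries. The alpha sum was 1270 to 1814 CPM in overlap, 959 to 1320 in mCherry and 2003 and 1600 CPM in cfos. These sums are given with no test. The neuronal marker sum was also lowest in all 3 overlap libraries, but single markers differed. In overlap, mCherry and cfos, Syt1 averaged 108, 332 and 503 CPM, Snap25 63.7, 139 and 261, and Map2 104, 130 and 375. In the same order Rbfox3 averaged 229, 265 and 396 CPM, Elavl4 94.8, 100 and 179, and Tubb3 32, 40.3 and 41.2. Stmn2 averaged 140, 123 and 202 CPM and so was higher in overlap than in mCherry.

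Shares within a type do not depend on the scaling of libraries. Gnaz took 9.88% ± 1.62 of the alpha counts in overlap (SD, n = 3), 3.94% ± 0.962 in mCherry (n = 3) and 17.3% ± 4.32 in cfos (n = 2), and the 3 groups did not overlap. Gnal took 7.36% ± 5.87, 18.1% ± 6.44 and 2.28% ± 0.0551, and Gnao1 16.4% ± 7.01, 26.3% ± 2.76 and 15.8% ± 4.79. Gnas took 42.4% ± 10.9, 28.2% ± 10.7 and 44.3% ± 0.371, with overlap and mCherry sharing part of their range. Among beta counts Gnb5 took 7.61% ± 1.61 in overlap, 9.35% ± 4.77 in mCherry and 28.2% ± 6.26 in cfos, both cfos replicates being highest. Gng3 took 59.6% ± 27.5, 63% ± 10.1 and 48.2% ± 17.4 of the gamma counts, and in overlap this share ran from 36.4% to 90%.

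**Figure D3:**
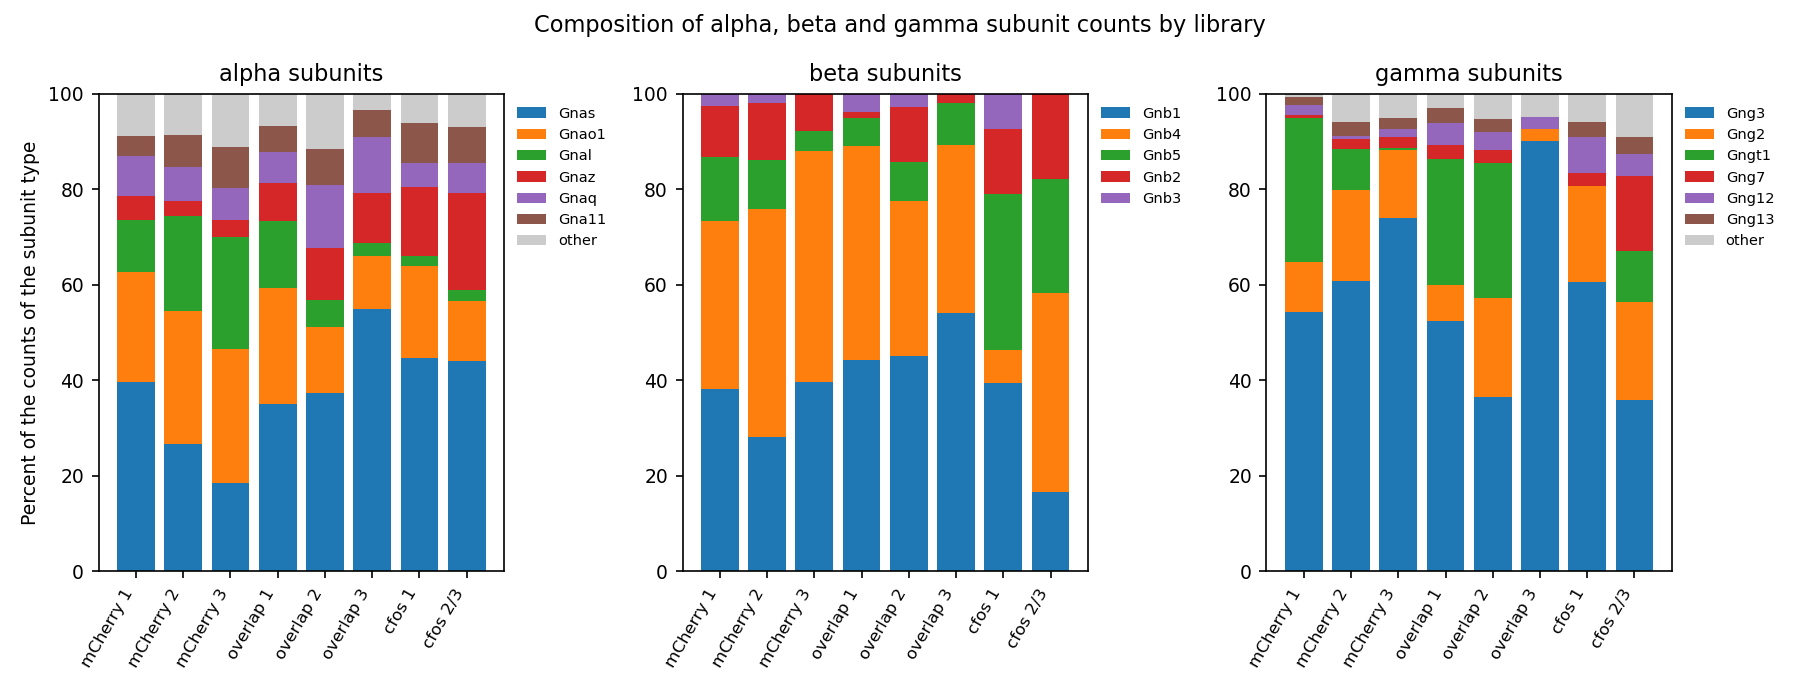
Percent of the alpha, beta and gamma subunit counts taken by each gene in the 8 replicates, with the less abundant alpha and gamma genes joined as other. The Gnaz segment widens from mCherry (3.94% on average) over overlap (9.88%) to cfos (17.3%), and the Gnal segment is on average widest in mCherry (18.1%).

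The overlap and mCherry libraries were set against each other for differences between doubly marked cells and those marked by mCherry. Gnaz averaged 156 CPM in overlap and 45.1 CPM in mCherry, Gnas 651 and 321 CPM, and Gng3, in the other direction, 70 and 231 CPM. Gnaq averaged 164 and 84.7 CPM. Of the 18 tested members 12 had a fold change below 0, with a median log2 fold change of -0.38, against 47.7% of genes and a median of 0.09 over all 16410 genes tested. All 5 tested gamma genes were below 0 and both tested Gq/11-type genes above, under each of the 3 scalings tried.

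By edgeR's quasi-likelihood test with Benjamini-Hochberg adjustment 0 of 18 members passed, as did 0% of all genes. In simulated data where all genes had the same spread, near the common one of these libraries, this test found none of the changes put in. Some members varied less, such as Gng3 in overlap (70 ± 7.49 CPM) and Gnaz in mCherry (45.1 ± 3.43 CPM). The latter SD may be too small if mCherry 2 is not independent. The simulation therefore does not tell how well the test finds changes in them. The lack of calls does not show a lack of change. The log2 fold change of Gnaz was 1.78 (SE 0.45, adjusted p = 0.257), that of Gng3 -1.72 (SE 0.47, adjusted p = 0.257), that of Gnas 1.02 (SE 0.30, adjusted p = 0.259) and that of Gnaq 0.95 (SE 0.53, adjusted p = 0.434). At an unadjusted p under 0.05 there were 3 members, Gnaz, Gng3 and Gnas, against 15% of all genes. Overlap lay above mCherry in every library in 3 members (Gnaz, Gnas and Gnaq), against 13.5% of all genes, and below it in 2 (Gng3 and Gng2), against 8.88%. The log2 fold changes of Gnao1 (-0.24, SE 0.47), Gnb1 (0.16, SE 0.54) and Gna13 (-0.20, SE 0.99) were smaller than their errors.

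The calls differed between tools. DESeq2 called Gnaz (adjusted p = 0.00297), Gng3 (0.00377) and Gnas (0.0384), against 6.13% of all genes, and limma-voom called Gnaz (0.012) and Gnas (0.0286), against 8.03%. Over all alternatives the adjusted p ran from 0.00297 to 0.87 for Gnaz, from 0.00123 to 0.87 for Gng3 and from 0.0286 to 0.87 for Gnas. Without mCherry 2, DESeq2 called 0 members, against 1.23% of genes, with log2 fold changes of 1.52 for Gnaz (adjusted p = 0.14), -2.01 for Gng3 (0.0576) and 0.90 for Gnas (0.352).

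**Figure D4:**
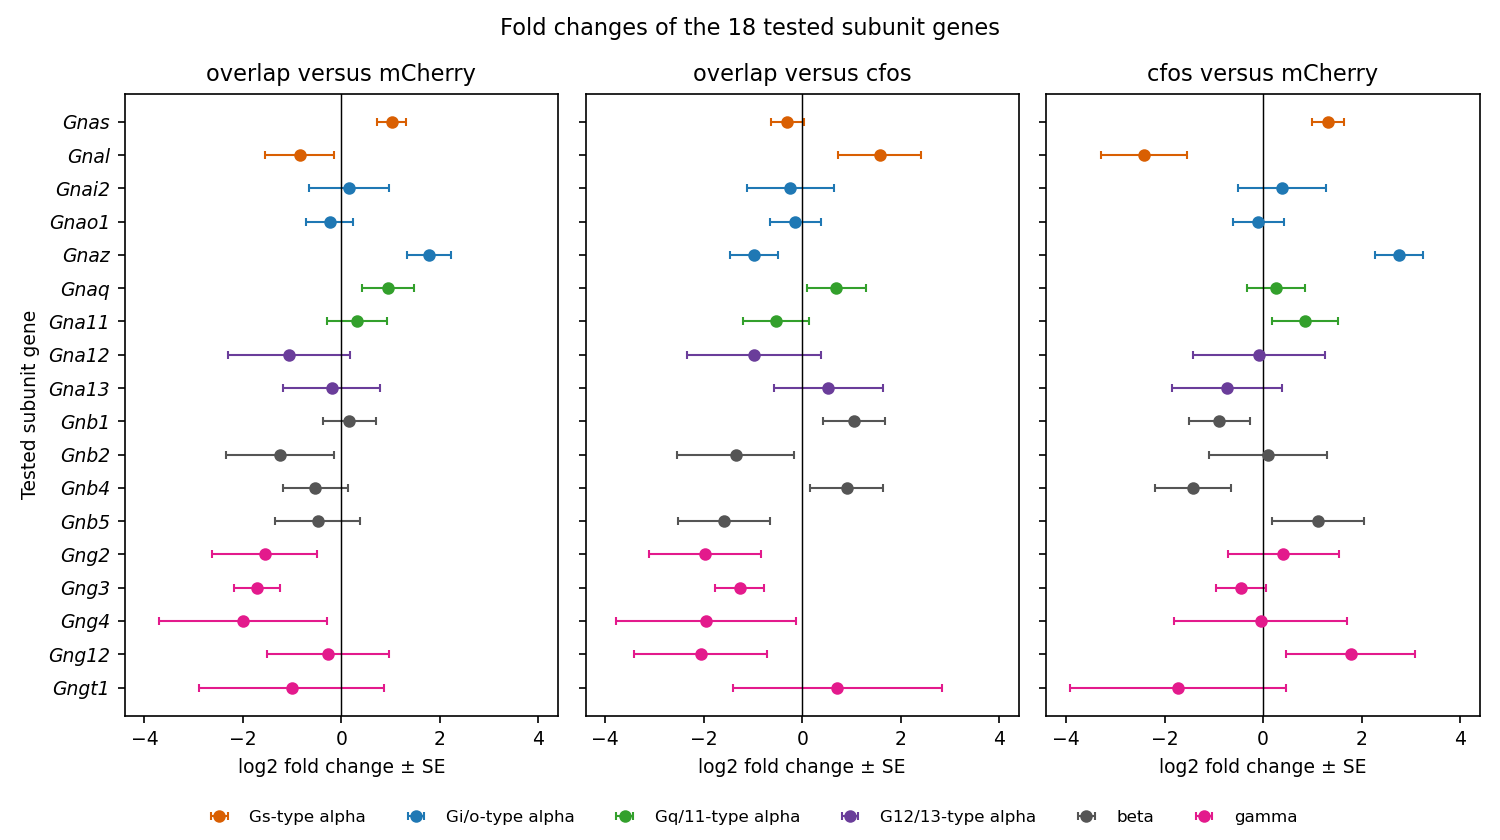
Log2 fold changes with standard errors from edgeR for the 18 tested subunit genes, by class, in the 3 comparisons; positive values are higher in the group named first. Gnaz and Gnas lie to the right of 0 against mCherry in both the overlap and the cfos comparison, Gng3 and Gng2 to the left in both overlap comparisons, and 0 genes passed the adjusted threshold.

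The overlap and cfos libraries were set against each other in the same way. Gng3 averaged 70 CPM in overlap and 169 CPM in cfos, Gng2 17.6 and 70.2 CPM, and Gnaz 156 and 306 CPM. Gnal pointed the other way, with 121 and 41 CPM. Again 12 of 18 tested members were below 0, with a median log2 fold change of -0.42, against 45.4% of genes and a median of 0.12 over all genes. Of the gamma genes 4 of 5 were below 0, with a median of -1.95. This comparison shares its overlap libraries with the one above, so agreement between them is not independent.

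EdgeR called 0 of 18 members, and 0% of all genes. On the log2 scale Gng3 differed by -1.27 (SE 0.50, adjusted p = 0.402) and was the 1 member at an unadjusted p under 0.05, against 11.8% of genes. Gnaz had -0.98 (SE 0.48, adjusted p = 0.455), Gnal 1.57 (SE 0.84, adjusted p = 0.493) and Gng2 -1.98 (SE 1.14, adjusted p = 0.525). Gng2 stood at -3.60 without overlap 2, and Gnal at 0.71 without overlap 1. Overlap was below cfos in every library in 6 members (Gnas, Gnaz, Gnb5, Gng2, Gng3 and Gng12), against 12% of all genes, and above it in 3 (Gnaq, Gnb1 and Gnb4), against 13.6%. Gnb1 had 1.05 (SE 0.63), Gnaq 0.69 (SE 0.60), Gna13 0.53 (SE 1.11), Gnas -0.30 (SE 0.33) and Gnao1 -0.14 (SE 0.52). Without cfos 1, Gnb1 was 1.80, and Gna13 was 1.56 without the cfos 2/3 average and -0.06 without overlap 2. DESeq2 called 0 members, against 6.23% of genes, and limma-voom 0, against 0%. Without cfos 1, the library with the highest astrocyte marker sum, the edgeR log2 fold change of Gng3 was -0.77 and that of Gnaz -1.11. Without the cfos 2/3 average they were -1.51 and -0.72.

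The cfos and mCherry libraries were compared for differences between the singly marked cells. Gnaz averaged 306 CPM in cfos and 45.1 CPM in mCherry, and Gnas 799 and 321 CPM. Gnal was lower, at 41 against 219 CPM, and so was Gnb4, at 62.2 against 170 CPM. Of the 18 tested members 9 were below 0 and 9 above, with a median log2 fold change of 0.02, against 47.7% below 0 and a median of 0.04 over all genes.

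EdgeR called 0 of 18 members here too, and 0% of genes. On the log2 scale Gnaz differed by 2.76 (SE 0.49, adjusted p = 0.166), Gnas by 1.32 (SE 0.33, adjusted p = 0.205), Gnal -2.42 (SE 0.87, adjusted p = 0.255) and Gnb4 -1.43 (SE 0.77, adjusted p = 0.359). The 3 members at an unadjusted p under 0.05, Gnaz, Gnas and Gnal, stand against 17.7% of all genes. In 7 members (Gnas, Gnaz, Gnaq, Gna11, Gnb5, Gng2 and Gng12) both cfos replicates lay above all mCherry libraries, against 18.5% of genes, and in 3 (Gnal, Gnb1 and Gnb4) below, against 14.2%. The other most abundant members of their class had -0.10 (SE 0.52) for Gnao1, 0.26 (SE 0.59) for Gnaq, -0.73 (SE 1.12) for Gna13, -0.89 (SE 0.62) for Gnb1 and -0.45 (SE 0.51) for Gng3. Without cfos 1, Gnb1 was -1.67 and Gna13 -0.19, and without the cfos 2/3 average Gna13 was -1.96.

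DESeq2 called Gnaz (adjusted p = 1.62e-06), Gnas (0.0113) and Gnal (0.0249), against 10.1% of genes, and limma-voom Gnaz (0.00107) and Gnas (0.00323), against 13%. Over all alternatives the adjusted p ran from 1.62e-06 to 0.647 for Gnaz, from 0.00323 to 0.676 for Gnas and from 0.0249 to 0.657 for Gnal. Without mCherry 2, DESeq2 called Gnaz alone (log2 fold change 2.44, adjusted p = 0.00342), against 4.48% of genes, and limma-voom called 0 members, against 0%. Without cfos 1 the DESeq2 log2 fold change of Gnaz was 2.66, with cfos then a single replicate assumed to vary like the other groups. By edgeR Gnaz stood at 2.32 without the cfos 2/3 average and 2.86 without cfos 1. The value for Gnb4 was -3.55 without the cfos 2/3 average and -0.67 without cfos 1.

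Companion genes of the pathway were read from 8 lists, and edgeR called 0 of them in either direction in any comparison, with 0 to 2 per list and comparison at an unadjusted p under 0.05 (over all genes 15%, 11.8% and 17.7% in the order above). Over all genes 47.7%, 45.4% and 47.7% were below 0, beside which the counts that follow are to be read. Adenylyl cyclases are the enzymes that make cyclic AMP. Among 9 tested, 2 were below 0 in overlap versus mCherry, 5 in overlap versus cfos and 4 in cfos versus mCherry. The calcium-stimulated Adcy8 stood at 50.8 to 94.1 CPM in overlap, 143 to 268 in mCherry and 220 and 95.5 CPM in cfos. Adcy4 went the other way, at 19 to 41.6 CPM in overlap, 0 to 7.16 in mCherry and 1.4 and 0 CPM in cfos. Of 5 tested subunits of protein kinase A, the target of cyclic AMP, 4 were above 0 in both comparisons with mCherry and 1 in overlap versus cfos. Prkacb, a catalytic subunit, averaged 115 CPM in overlap and stood at 248 and 249 CPM in cfos and 57.3 to 132 CPM in mCherry.

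Of the 3 tested GIRK channel genes, all were below 0 in overlap versus mCherry, with a median of -2.37, and 2 in overlap versus cfos, with a median of -2.73. Kcnj9 stood at 0 to 20 CPM in overlap, 37.3 to 66.1 in mCherry and 101 and 22.2 CPM in cfos, and Kcnj3 at 0 to 3.63, 7.47 to 14.3, and 39.3 and 7.68 CPM. Both had no overlap library above any mCherry or cfos library. Over all genes, overlap lay below mCherry in every library in 8.88% and below cfos in 12%. The overlap values of Kcnj3 were below 3 counts. Kcnj6, the other tested gene, overlapped between groups, at 19 to 118 CPM in overlap, 76.8 to 192 in mCherry and 115 and 6.4 CPM in cfos. Among the 4 phospholipase C beta genes, 2 were below 0 in each comparison of overlap, and Plcb3 stood at 12.7 to 38.1 CPM in overlap against 1.18 to 6.4 CPM in mCherry and 4.21 and 2.56 CPM in cfos. All 3 exchange factors that G12/13 acts on were below 0 against mCherry, with Arhgef1 at 156 to 213 CPM in overlap and 123 to 703 CPM in mCherry.

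RGS proteins speed GTP hydrolysis, and of 14 tested genes 8 were above 0 in overlap versus mCherry, 6 in overlap versus cfos and 7 in cfos versus mCherry. Rgs9 and Rgs11, R7-family genes whose products bind Gnb5, had the smallest p of the list in cfos versus mCherry and differed in pattern. The rest of that family is not shown. Rgs9 stood at 12.7 to 25.3 CPM in overlap, 1.02 to 6.4 in mCherry and 35.1 and 25.6 CPM in cfos, and Rgs11 at 65.3 to 230, 242 to 384, and 81.3 and 3.41 CPM. All 7 tested receptor kinases and arrestins were above 0 in cfos versus mCherry, with a median of 1.44, and 3 in overlap versus mCherry. The kinase gene Grk4 stood at 16.3, 3.63 and 29.5 CPM in overlap and at 0 in all mCherry libraries. Of 5 tested chaperones and exchange factors, all were above 0 in cfos versus mCherry, and Ccdc88a, which encodes the G protein modulator girdin, stood at 221 to 265 CPM in overlap, 129 to 163 in mCherry and 353 and 291 CPM in cfos, with no overlap between groups.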

How the data were processed

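The authors deposited raw counts per gene for 9 libraries, as whole numbers. Cells were lysed in the tube and their RNA went into Smart-3SEQ library preparation, per the labels' protocols. The tools named are featureCounts, STAR, Trim Galore and UMI-tools, with the mm10 build, per the submitters' processing notes. The sources used here do not give versions, annotation, strand setting or how molecular identifiers were used, so reads of genes that share exonic bases on opposite strands may not be told apart, and floors cover counting error only. Coordinates and exon overlaps are from GENCODE M21, which held 54809 of the 54838 identifiers.

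Counts were filtered by filterByExpr (min.count 10), which left 16410 genes, scaled by TMM and fitted in 1 edgeR 4.0.16 quasi-likelihood model with robust dispersion over 3 groups and 8 replicates (biological coefficient of variation 0.958), in R 4.3.3. Tests were two-sided, with Benjamini-Hochberg adjustment over all genes at 0.05. The standard error is the log2 fold change over the square root of F. The cfos 2 and cfos 3 counts were averaged and rounded. DESeq2 1.42.0 and limma 3.58.1 were alternatives. In simulated data all genes had the same spread between libraries. The edgeR fit recovered all 4-fold and 8-fold changes put into the overlap libraries at a low spread but none at a spread near the observed common one. The labels name no animals, so p-values measure the spread between libraries.

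The members, gene lists and tests were chosen with earlier results of these data known. Fold changes were named for the 4 members of smallest p in each comparison and for the most abundant member of each class, and from each companion list up to 2 genes of smallest p. Coding ends were not read for Gnal, and some marker genes and the list sums that hold them are not reported here.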

Additional observations from a re-analysis of the deposited data

How the results depend on the processing

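EdgeR called 0 of the tested members in all 3 comparisons with any overlap or mCherry replicate left out. The same held with RLE or no scaling factors and with a stricter count filter. Over all genes these settings called 0%, except for 0.018% in cfos versus mCherry with the stricter filter. In overlap versus mCherry, DESeq2 called 3 members, against 6.13% of genes, and limma-voom 2, against 8.03%. In cfos versus mCherry, DESeq2 called 3, against 10.1% of genes, and limma-voom 2, against 13%. EdgeR called 1 there (Gnaz) with all 9 columns or without a count filter, against 1.68% and 3.98% of genes. Without mCherry 2 these edgeR calls were lost (adjusted p = 0.152 and 0.305), and DESeq2 called 1, against 4.48%. Calls with mCherry 2 left out, and DESeq2 without cfos 1, were chosen after seeing the data. The cause of these differences was not tested. RLE factors moved the median of all genes from 0.09 to -0.03 in overlap versus mCherry and from 0.04 to -0.08 in cfos versus mCherry.

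Of the named fold changes, those of Gnas, Gnaz, Gnal, Gng2, Gng3 and Gnb4 kept their sign in every alternative. Leaving out each replicate in turn gave a range of -0.78 to 0.30 for Gna13, -0.66 to 0.07 for Gnao1 and -0.18 to 0.38 for Gnb1 in overlap versus mCherry, of -0.06 to 1.56 for Gna13 (1.03 at most with a single library left out) and -0.57 to 0.37 for Gnao1 in overlap versus cfos, and of -0.05 to 0.27 for Gnaq in cfos versus mCherry. Without mCherry 2, Gnb1 in overlap versus mCherry was -0.19 with the cfos columns apart, -0.20 in DESeq2 and -0.23 both in limma-voom and with the filter off; it was -0.02 without the cfos 2/3 average. In overlap versus cfos, Gna13 was -0.0027 by limma-voom, and Gnao1 was 0.05 with all 9 columns, 0.34 by limma-voom (0.27 without mCherry 2), 0.50 by DESeq2 without cfos 1 and 0.03 with the replicate block.

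The labels number the biological replicates 1 to 3 in each group, and whether equal numbers share an animal is not given. Same-numbered libraries correlated at -0.05 to 0.06 in their deviations from the group means, with cfos 2 and cfos 3 taken apart. With so few libraries and no comparison to differently numbered ones, this cannot show whether the libraries are paired. With the replicate block and all 9 columns edgeR called 0 members in each comparison, and 0% of genes, against 1 member (Gnaz, cfos versus mCherry) without the block. At these depths 3 counts equal up to 6.32 CPM, which limits what can be said of the 14 untested genes.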
